A study of Mus musculus with 31 samples.

Results

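Plagl1, Grb10, Gnas, Nnat, Mest, Peg10, Sgce, Slc38a4 and Impact are imprinted genes with roles in growth or nutrient supply that lie outside the Igf2 and H19 locus. They were listed by name, as imprinted genes with such roles, with earlier results of these data known, and make up 9 of the 38283 genes in each table of values. RNA-seq measured them in pancreatic cells of C57BL/6 mice at postnatal day 2, sorted by YFP into mesenchymal cells, which carry it, and non-mesenchymal cells, which lack it. All groups carried Nkx3.2-Cre, a driver active in pancreatic mesenchyme, so no comparison is with Cre-free mice. In the H19DMD model, mutants were H19DMDfl/+; Nkx3.2+/Cre and controls H19DMD+/+; Nkx3.2+/Cre, where H19DMD is the imprinting control region shared by H19 and the growth factor gene Igf2. In the Igf2 model, mutants were Igf2+/fl; Nkx3.2Cre/+ and controls Igf2+/+; Nkx3.2Cre/+. Values were analysed for 21 libraries in 6 groups. In each fraction of the H19DMD model 3 control libraries and 4 mutant libraries were used, and 1 further control sample per fraction was not analysed here. The Igf2 model had 4 control libraries and 3 mutant libraries, all of its non-mesenchymal fraction. Mesenchymal cells of the Igf2 model were not analysed here.

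Imprinted genes are transcribed mainly or only from the allele of one parent, because differential methylation set in the germ line marks the parental copies. Many act on fetal and early postnatal growth, and they often differ strongly between cell types of one organ. Plagl1 encodes a zinc finger transcription factor. Grb10 encodes an adaptor that binds activated insulin and IGF1 receptors and limits growth, and Gnas encodes the stimulatory G protein subunit that couples receptors to cAMP. Nnat and Mest encode proteins of the endoplasmic reticulum membrane, and Nnat promotes insulin processing by signal peptidase in beta cells. Peg10 derives from a retrotransposon gag-pol gene. Sgce encodes epsilon-sarcoglycan, Slc38a4 an amino acid transporter, and Impact an inhibitor of the amino acid sensor kinase GCN2.

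Levels are given as FPKM, fragments scaled to transcript length and to the library's mapped fragments, so they are per length and can be compared between genes. Genes with a value above 0 numbered 17476 to 20918 per library, and the 3 highest features held 38.2 to 82.5% of a library's FPKM total. Read counts, and with them depth, are unknown. Nothing in the labels says that libraries of a group came from separate mice, so p-values measure the spread between these libraries, which may be technical. The sort followed its markers: the summed level of 10 mesenchymal markers ran from 5054 to 5930 FPKM in the mesenchymal H19DMD controls, and from 158 to 195 FPKM in the non-mesenchymal ones. The reverse held for 10 acinar markers, with 655 to 1513 against 42910 to 110800 FPKM. In mesenchymal cells Igf2 averaged 7040 FPKM in H19DMD mutants and 3849 FPKM in controls, and H19 averaged 700.3 and 2446 FPKM. H19 fell by 1.82 on the log2 scale (limma, adjusted p = 0.0458), and the Igf2 groups did not overlap but did not pass the test (adjusted p = 0.927). In non-mesenchymal cells, which were sorted as lacking YFP, levels of these genes overlapped between genotypes. H19 was at 26.2 to 34.8 FPKM in H19DMD controls and at 14.6 to 32.4 FPKM in H19DMD mutants. Igf2 was at 53.2, 45.2 and 46.2 FPKM in these controls and at 88.5, 157, 45.4 and 141 FPKM in these mutants, so that 3 of 4 mutants were above all controls (log2 difference 1.0 ± 0.42, SE; adjusted p = 0.894). Igf2 was at 71.5 to 144 FPKM in controls of the Igf2 model and at 65.2, 25.0 and 146 FPKM in its mutants. The mutant label of a non-mesenchymal library is the genotype of the mouse, and whether its cells carry the deletion was not tested. Nkx3-2 itself was at or below 1.99 FPKM in every H19DMD library.

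All 9 genes were above 0 in every library and passed the filter of a mean of 1 FPKM in every comparison. Their lowest single value was 4.59 FPKM, for Impact in a non-mesenchymal H19DMD mutant. Gnas was the highest of the 9 in all 6 groups, with group means of 678 to 1221 FPKM. In mesenchymal controls 77 genes had a higher mean than Gnas, 173 a higher mean than Mest, 207 a higher mean than Plagl1 and 6448 a higher mean than Impact. The order by mean in those controls was Gnas, Mest, Plagl1, Grb10, Peg10, Sgce, Slc38a4, Nnat and Impact. Ranges of neighbours in that order overlapped for Mest and Plagl1 and for Slc38a4 and Nnat, and for no other neighbours. In non-mesenchymal controls of the H19DMD model Grb10 was second, and Mest and Plagl1 dropped to sixth and seventh, with ranges that overlapped down to Sgce.

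**Figure D1:**
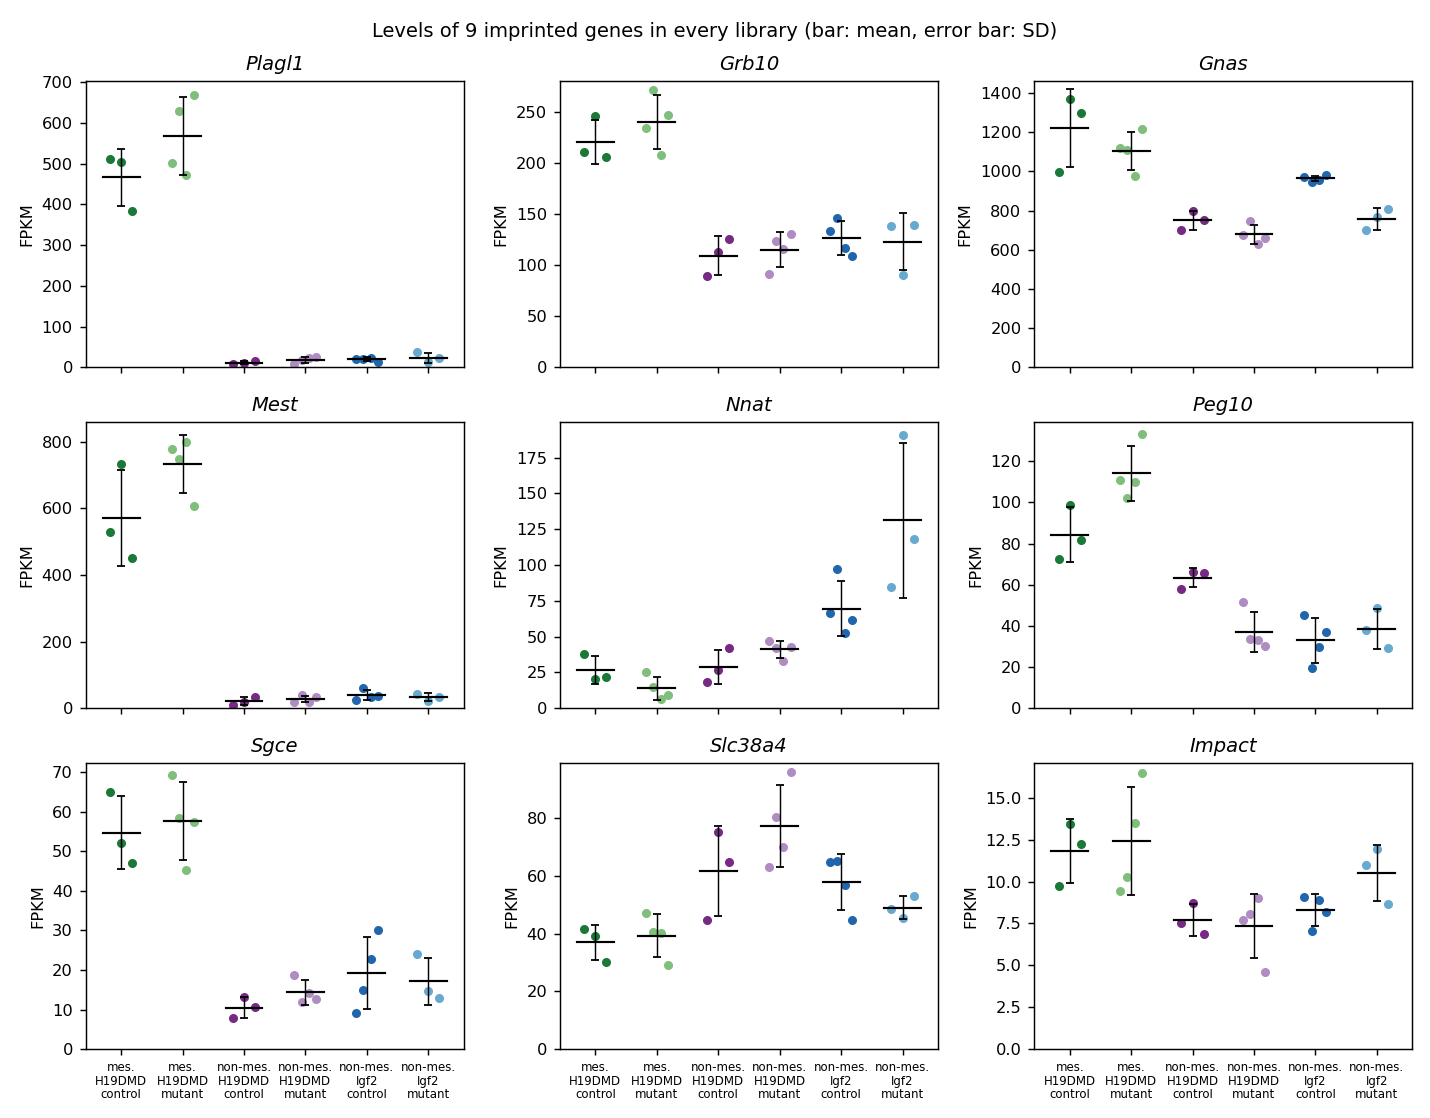
Level in FPKM (y axis, linear, a scale for each gene) of the 9 imprinted genes in every library of the 6 groups (x axis; mes. is mesenchymal, non-mes. non-mesenchymal). Points are libraries, bars means and error bars SDs. Plagl1 and Mest are at 385 FPKM or more in each mesenchymal library and at or below 60.8 FPKM in each non-mesenchymal one, while Gnas is at 628 FPKM or more throughout.

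Replicate spread differed between the genes. The coefficient of variation within a group was 1.54 to 16.3% for Gnas and 9.81 to 22.6% for Grb10. It was 14 to 58.1% for Nnat and 11.8 to 55.6% for Mest, whose high values were in the non-mesenchymal groups. For Plagl1 it was 15.2 to 51.7% and for Sgce 16.9 to 47.6%, with the highest values also in non-mesenchymal groups. Differences in Nnat and in non-mesenchymal Mest, Plagl1 and Sgce therefore had to be larger to pass a test.

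The first comparison was between fractions in controls, which carry no floxed allele. Plagl1, Mest, Sgce and Grb10 were higher in mesenchymal than in non-mesenchymal control cells, and none of the 9 genes passed the test as lower. That is 4 of 9 called at an adjusted p under 0.05 with limma on log2(FPKM + 1), where 22.6% of the 16732 genes tested were called and 12.4% were called higher in mesenchyme. The groups of all members but Nnat did not overlap, 8 of 9 where 39.9% of all genes had such groups, and the exact permutation p was then 0.1, the smallest that 3 against 3 libraries allow. The median log2 difference was 0.69 over the 9 genes and 0.08 over all genes tested. In bulk RNA, fewer cells of a type and less RNA per cell cannot be told apart.

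Plagl1 (ENSMUSG00000019817, chr10:13060504-13131694, plus strand, GRCm38), the transcription factor gene, had the largest fraction difference of the 9. It was at 510.4, 503 and 385 FPKM in the 3 mesenchymal controls and at 9.07, 11.7 and 15.5 FPKM in the 3 non-mesenchymal ones. Every mesenchymal library was far above every non-mesenchymal one, and the means differed 38.5-fold. The log2 difference was 5.17 ± 0.24 (SE; adjusted p = 0.000112).

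Mest (ENSMUSG00000051855, chr6:30723547-30748465, plus strand), a hydrolase-fold protein gene of the endoplasmic reticulum, came next. It was at 528, 732 and 452 FPKM in mesenchymal controls and at 11, 19.8 and 35.2 FPKM in non-mesenchymal ones. The groups lay far apart, and the log2 difference was 4.75 ± 0.43 (SE; adjusted p = 0.000873). Copg2, which runs antisense to it, shares 912 of Mest's exonic bases, 23.1% of them, and in the tables the locus given for Mest runs to the far end of Copg2. Whether the authors' quantification used strand is not given in the sources used here, so reads from the shared stretch cannot be assigned with certainty. Copg2 itself was at 120.4 FPKM in mesenchymal and 15.3 FPKM in non-mesenchymal controls, lower than Mest in mesenchyme (adjusted p = 0.00186 between fractions).

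Promoter sequence is shown for Mest, with one of the highest ratios of mesenchymal to non-mesenchymal level, and for Slc38a4, with the lowest in controls (in mutants Nnat was lower). RefSeq windows of 250 bases before the start were found for 6 of the 9 genes, 14 windows in all (GRCm38.p6). The search was for TGCCGC, the hexamer bound by the imprint-keeping zinc finger protein ZFP57 when methylated, on both strands. The Mest window holds 2 matches, which stand in capitals and read as GCGGCA because they lie on the other strand, and the Slc38a4 window holds none.
Mest, chr6:30737800-30738049, plus strand: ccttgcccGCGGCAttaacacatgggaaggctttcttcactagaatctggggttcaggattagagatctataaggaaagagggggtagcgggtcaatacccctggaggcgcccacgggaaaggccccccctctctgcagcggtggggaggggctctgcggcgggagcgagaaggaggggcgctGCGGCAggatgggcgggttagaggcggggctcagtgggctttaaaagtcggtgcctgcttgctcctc
Slc38a4, chr15:97020360-97020609, minus strand: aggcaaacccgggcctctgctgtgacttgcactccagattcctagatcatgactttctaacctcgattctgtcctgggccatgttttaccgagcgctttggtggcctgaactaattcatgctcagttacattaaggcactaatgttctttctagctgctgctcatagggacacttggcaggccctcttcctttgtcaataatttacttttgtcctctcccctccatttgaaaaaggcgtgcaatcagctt

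A further Mest start, 3 bases on, shares both matches, and the third Mest window holds none. The hexamer was present once in the Plagl1 window and absent from all windows of Gnas, Grb10, Nnat and Slc38a4. Of all 32851 promoter windows of this length, 8.68% hold it. CpG dinucleotides numbered 40 in the richest Grb10 window, 29 in the richest Gnas window, 19 in that of Plagl1, 14 in the Mest window shown and 5 in the Slc38a4 window shown, against a median of 6 over all windows. The YY1 motif AAGATGGC, searched on both strands, was in none of the members' windows and in 1.56% of all. These matches describe letters in a window and are not binding sites measured here.

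Sgce (ENSMUSG00000004631, chr6:4674350-4747207, minus strand), the sarcoglycan gene, was at 64.9, 52.1 and 47.0 FPKM in mesenchymal controls. It was at 7.77, 13.1 and 10.6 FPKM in non-mesenchymal controls. Its groups did not overlap, with a 5.21-fold ratio of means and a log2 difference of 2.29 ± 0.24 (SE; adjusted p = 0.00147). Its neighbour Peg10 (ENSMUSG00000092035, chr6:4747306-4760517, plus strand) starts 98 bases away on the opposite strand. Peg10 was at 72.4, 99.0 and 81.6 FPKM in mesenchymal and at 58.0, 66.4 and 65.8 FPKM in non-mesenchymal controls. The Peg10 groups did not overlap either, but the log2 difference was 0.40 ± 0.18 (SE) and did not pass the test (adjusted p = 0.176).

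Among the signalling genes, Grb10 (ENSMUSG00000020176, chr11:11930508-12038683, minus strand) was at 210.4, 245 and 206 FPKM in mesenchymal and at 89.2, 113 and 126 FPKM in non-mesenchymal controls. Each mesenchymal library was above each non-mesenchymal one, with a log2 difference of 1.02 ± 0.19 (SE; adjusted p = 0.0131). Gnas (ENSMUSG00000027523, chr2:174284320-174346744, plus strand) was at 995, 1371 and 1299 FPKM in mesenchymal and at 702, 796 and 753 FPKM in non-mesenchymal controls. The groups did not overlap, but the log2 difference of 0.69 ± 0.20 (SE) missed the threshold (adjusted p = 0.0578). With 1 fit over all H19DMD groups, or with transcripts under 200 nucleotides left out, it passed with adjusted p of 0.00613 and 0.0382; over all its alternatives the adjusted p ran from 0.00613 to 0.162. Gnas shares 988 exonic bases with antisense Nespas and 1469 with antisense Gm20721, so its level is uncertain in the same way as that of Mest. The level is that of the whole gene, with 24 annotated transcripts. Levels of single transcripts or alleles of Gnas are not given.

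The genes of nutrient supply and Nnat showed no called difference between control fractions. Slc38a4 (ENSMUSG00000022464, chr15:96994820-97055956, minus strand) was at 41.4, 39.3 and 30.0 FPKM in mesenchymal and at 44.8, 75.3 and 64.8 FPKM in non-mesenchymal controls. It was the member with non-overlapping groups in the other direction, at -0.71 ± 0.25 (log2, SE; adjusted p = 0.104). It passed without the lowest non-mesenchymal control, replicate 1, at -0.92 (adjusted p = 0.0428), and with median-ratio scaling at -0.84 (adjusted p = 0.0339), as well as with 1 fit over all H19DMD groups (adjusted p = 0.0462), within a range of adjusted p of 0.0339 to 0.253 over its alternatives. Impact (ENSMUSG00000024423, chr18:12955852-12992950, plus strand) was at 9.76, 13.5 and 12.3 against 7.52, 8.75 and 6.86 FPKM, a log2 difference of 0.55 ± 0.20 (SE; adjusted p = 0.106). Nnat (ENSMUSG00000067786, chr2:157560078-157562522, plus strand) was at 38.2, 20.7 and 21.5 against 18.4, 26.8 and 41.8 FPKM, and its groups overlapped. Nnat's log2 difference was -0.09 ± 0.38 (SE; adjusted p = 0.896), with a 95% interval of -1.01 to 0.83. Nnat lies inside Blcap on the opposite strand, sharing no exonic base with it, and the tables give it Blcap's locus.

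**Figure D2:**
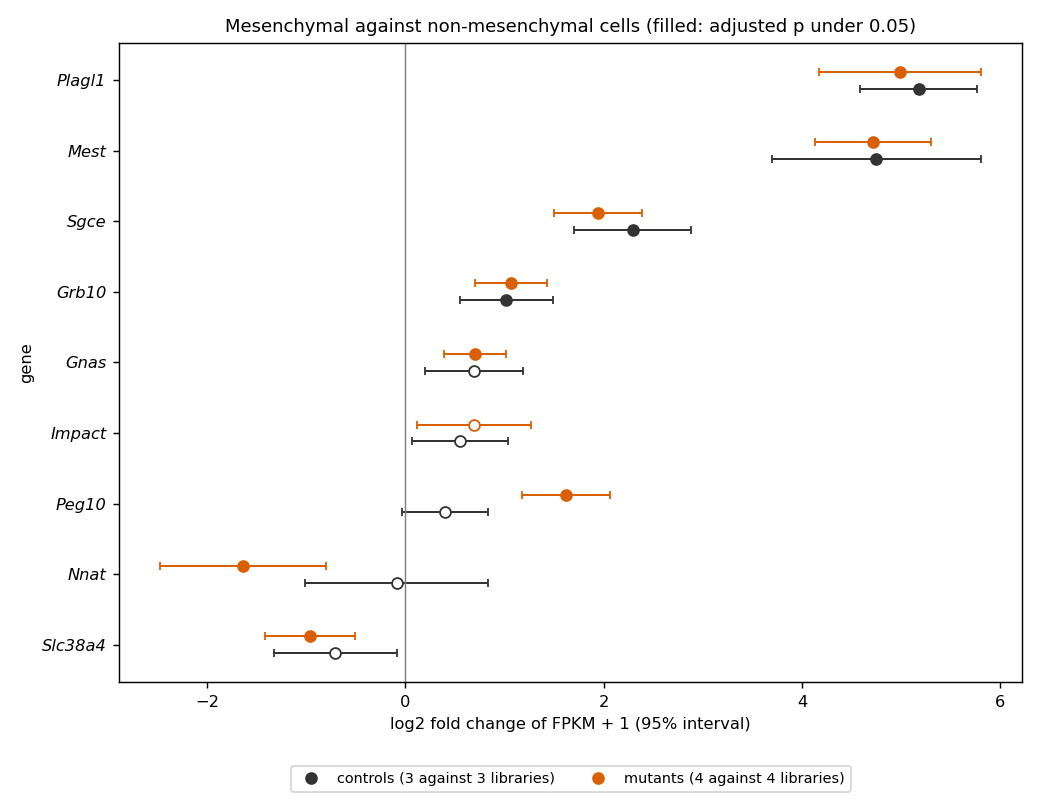
Log2 difference between mesenchymal and non-mesenchymal cells of the H19DMD model (x axis, FPKM + 1, with 95% intervals) for each of the 9 genes (y axis), in controls (dark) and mutants (orange); filled symbols passed an adjusted p of 0.05. Plagl1 and Mest lie near 5 in both genotypes, Slc38a4 lies below 0, and Peg10 and Nnat are farther from 0 in mutants.

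To set these differences beside the purity of the sort, the level in non-mesenchymal controls was expressed as a percentage of that in mesenchymal controls. It was 2.60% for Plagl1, 3.85% for Mest, 19.2% for Sgce, 49.6% for Grb10, 61.4% for Gnas, 65.2% for Impact, 75.2% for Peg10, 108% for Nnat and 167% for Slc38a4. The mesenchymal markers were at 0 to 16.4% by this measure, with a median of 0.92% over 9 markers above 0 in mesenchyme. Vim, at 16.4%, was the marker above Plagl1 and Mest, and the others were all below both, so that Plagl1 and Mest were less depleted in non-mesenchymal cells than most of these markers. The other members lay above the whole range. Endothelial markers were at 12.6 to 65.3%, a range that holds Sgce, Grb10, Gnas and Impact. The reverse measure, mesenchymal as a percentage of non-mesenchymal level, was 59.9% for Slc38a4 and 92.4% for Nnat. It was 0 to 1.81% for the acinar markers and 0.462 to 1.79% for the endocrine markers.

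**Figure D3:**
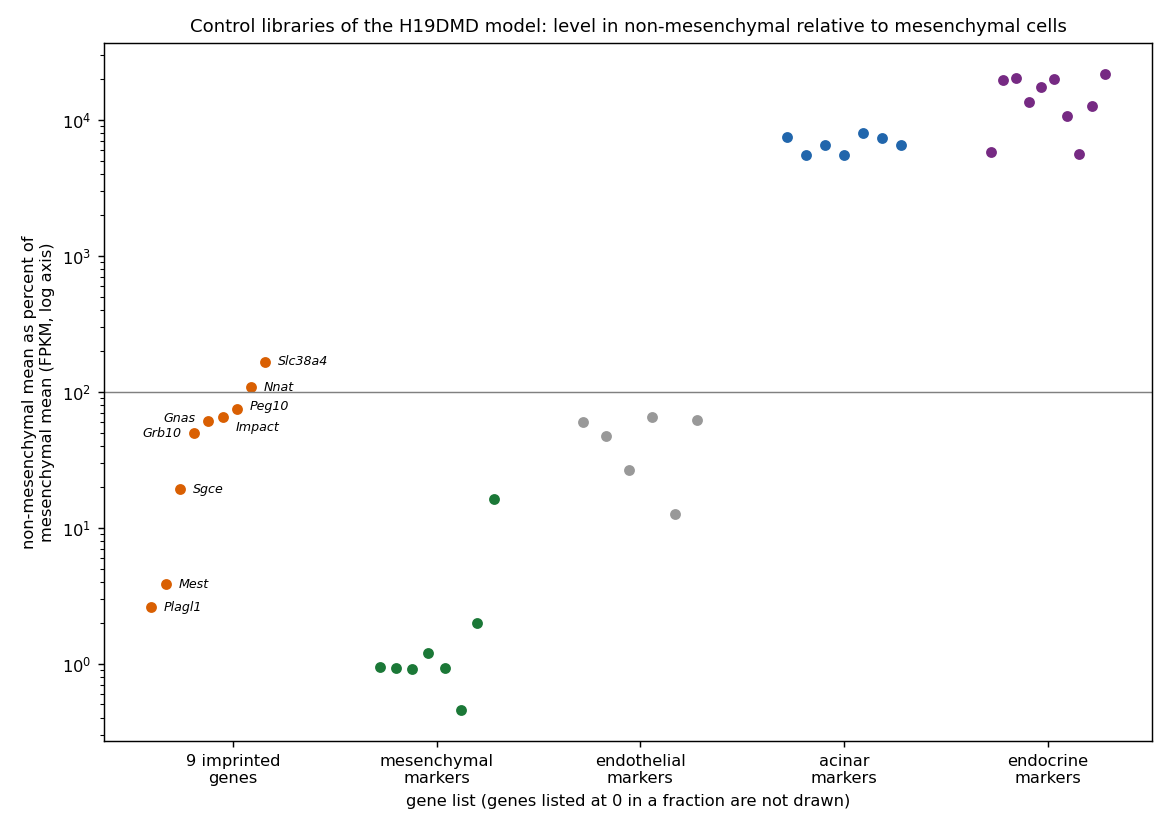
Mean FPKM in non-mesenchymal controls as a percentage of that in mesenchymal controls of the H19DMD model (y axis, log scale) for the 9 imprinted genes and for markers of 4 cell types (x axis); the line marks equal levels, and genes at 0 in a fraction are not drawn. Plagl1 at 2.60% and Mest at 3.85% lie below Vim at 16.4% and above the other mesenchymal markers, and all 9 genes lie far below the acinar and endocrine markers.

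The same comparison within H19DMD mutants called 8 of the 9 genes. Plagl1, Mest, Sgce, Peg10, Grb10 and Gnas were higher in mesenchymal cells, and Slc38a4 and Nnat were lower. The background was 28.6% of 16767 genes called, 13.5% higher and 15.1% lower. All 9 genes had groups that did not overlap, against 31.0% of all genes tested. The median log2 difference over the 9 genes was 1.06, and -0.03 over all genes tested.

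Plagl1 was at 502, 629, 473 and 669 FPKM in the 4 mesenchymal mutants and at 7.28, 18.9, 22.1 and 25.0 FPKM in the 4 non-mesenchymal ones, a log2 difference of 4.99 ± 0.35 (SE; adjusted p = 2.4e-05). Mest was at 778, 748, 799 and 607 against 19.7, 39.9, 19.5 and 33.1 FPKM, a log2 difference of 4.72 ± 0.25 (SE; adjusted p = 7.0e-06). Both differences were close to those in controls, and their change between genotypes was -0.18 ± 0.48 for Plagl1 and -0.03 ± 0.50 for Mest (log2, SE). Sgce was at 69.3, 58.5, 45.3 and 57.5 against 18.7, 11.8, 14.1 and 12.6 FPKM, a log2 difference of 1.94 ± 0.19 (SE; adjusted p = 0.000151). Grb10 was at 234, 271, 208 and 246 against 90.8, 123, 115 and 130.4 FPKM, a log2 difference of 1.06 ± 0.16 (SE; adjusted p = 0.00144). Gnas was at 1117, 1109, 979 and 1216 against 678, 746, 628 and 662 FPKM, a log2 difference of 0.70 ± 0.13 (SE; adjusted p = 0.00525). For Sgce, Grb10 and Gnas, too, each mesenchymal library was above each non-mesenchymal one, with ratios of means of 4.02, 2.09 and 1.63 beside 5.21, 2.02 and 1.63 in controls.

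Peg10 was at 111, 102, 109.7 and 133 FPKM in mesenchymal and at 51.5, 33.8, 33.1 and 30.0 FPKM in non-mesenchymal mutants. The groups lay well apart, with a 3.07-fold ratio of means and a log2 difference of 1.62 ± 0.19 (SE; adjusted p = 0.000408). Nnat was at 25.0, 14.9, 6.46 and 9.57 FPKM in mesenchymal and at 46.9, 41.7, 33.2 and 42.6 FPKM in non-mesenchymal mutants. All 4 mesenchymal libraries were below all non-mesenchymal ones, at -1.64 ± 0.36 (log2, SE; adjusted p = 0.0108). Slc38a4 was at 47.1, 40.7, 40.3 and 29.0 against 63.0, 80.3, 70.0 and 95.8 FPKM, at -0.96 ± 0.20 (log2, SE; adjusted p = 0.00738). Impact was at 9.44, 10.3, 13.5 and 16.5 against 7.71, 8.04, 8.99 and 4.59 FPKM, and its log2 difference of 0.69 ± 0.25 (SE) was not called (adjusted p = 0.0748). With 1 fit over all H19DMD groups Impact was called as well (adjusted p = 0.0289, in a range of 0.0289 to 0.160 over its alternatives). Whether Peg10 and Nnat differed in this respect from controls is the subject of the test of the interaction given after the mutant comparisons.

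The neighbours of the 9 genes on the chromosome were counted as a list, and these and the following counts stand beside 12.4% of all genes called higher and 10.3% called lower in control mesenchyme, and 13.5% and 15.1% in mutants. In controls 8 of the 22 neighbours tested were higher in mesenchyme and 3 lower, and in mutants 8 and 4 of 22, the lower counts being near the all-gene share. Klf14, which lies beyond Copg2 from Mest and encodes a zinc finger transcription factor, was at 25.7 ± 8.1 FPKM in mesenchymal and 0.50 ± 0.65 FPKM in non-mesenchymal controls (SD; log2 difference 4.19, adjusted p = 0.000834). Phactr2, the second gene from Plagl1, was at 42.3 ± 4.2 and 7.04 ± 1.0 FPKM (SD; log2 difference 2.43, adjusted p = 0.000442). Nespas was at 30.7 ± 5.5 and 4.61 ± 1.7 FPKM (SD; log2 difference 2.53, adjusted p = 0.00219), subject to the overlap with Gnas. Of 30 imprinted genes at other domains that were tested in controls, 14 were higher and 6 lower in mesenchyme, and in mutants 15 and 4 of 28, the last near the all-gene share. The largest differences in controls were those of Dcn, a matrix proteoglycan gene that is also on the mesenchymal marker list, with H19, Igf2 and the growth inhibitor Cdkn1c (log2 difference 4.97, adjusted p = 0.000148).

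Among partners of Grb10 and of Sgce more genes were called higher than lower in mesenchyme, beside all-gene shares in controls of 12.4% higher and 10.3% lower. Few partners of Gnas were called. Of 17 genes of insulin and IGF receptor signalling, 4 were higher in mesenchymal controls and 2 lower, and in mutants 5 and 3, the lower counts being near the all-gene shares of 10.3% and 15.1%. The docking protein gene Irs1 was at 11.6 FPKM in mesenchymal and 0.98 FPKM in non-mesenchymal controls (log2 difference 2.67, adjusted p = 0.000429). The adaptors Grb7 and Grb14, of the same family as Grb10, differed in the other direction: Grb7 was at 1.37 and 21.2 FPKM (-3.41, adjusted p = 0.00525) and Grb14 at 4.91 and 13.5 FPKM (-1.32, adjusted p = 0.0155). Of 18 genes of Gs and cAMP signalling, the adenylyl cyclases Adcy3 and Adcy5 were higher and none was lower in controls, a share near the 12.4% of all genes called higher. In mutants Adcy5 was the gene called, where 13.5% of all genes were higher. Of 11 genes of the sarcoglycan and dystrophin complex, 5 were higher and 1 lower in each genotype. The lower count was near or below the all-gene shares of 10.3% in controls and 15.1% in mutants. Delta-sarcoglycan Sgcd was at 14.5 and 1.03 FPKM (log2 difference 2.98, adjusted p = 0.0011) and syntrophin Sntb1 at 2.02 and 10.1 FPKM in controls (-1.87, adjusted p = 0.00452).

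Of the genes that act with Slc38a4 and Impact in amino acid supply, 1 of 18 was higher and 4 lower in mesenchymal controls, and 1 and 5 of 17 in mutants, where 10.3% and 15.1% of all genes were lower and 12.4% and 13.5% higher. The 4 lower in controls were the transporters Slc38a3, Slc38a5 and Slc38a1 and the asparagine synthetase Asns, which was at 7.27 FPKM in mesenchymal and 41.6 FPKM in non-mesenchymal controls (-2.43, adjusted p = 0.0131). Slc38a1, which lies on chromosome 15 as Slc38a4 does, was at 6.14 and 18.4 FPKM (-1.46, adjusted p = 0.00432). Plagl2, a close relative of Plagl1, was lower in mesenchyme, at 8.28 against 20.6 FPKM (-1.20, adjusted p = 0.0266), opposite in direction to Plagl1. The other relative tested, Plag1, was not called in either genotype. Of 5 signal peptidase subunits, 2 were lower in mesenchymal controls and 3 in mutants, none higher, with Sec11c at 28.2 and 88.7 FPKM in controls (-1.66, adjusted p = 0.00903).

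The question of the mutant comparisons was whether H19DMDfl/+ or Igf2+/fl mice with Nkx3.2-Cre had other levels of imprinted genes elsewhere in the genome. None of the 9 genes was called in any of the 3 mutant comparisons. Few genes were: 0.0694% of 15856 genes in mesenchymal cells of the H19DMD model, 0.0677% of 16239 genes in its non-mesenchymal cells and 0.0631% of 17441 genes in non-mesenchymal cells of the Igf2 model. At an unadjusted p under 0.05, 1, 1 and 2 of the 9 genes passed, where 4.76%, 5.35% and 5.28% of all genes did. Median log2 differences over the 9 genes were 0.08, 0.34 and -0.06, beside -0.07, 0.05 and -0.03 over all genes tested.

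Peg10 was the member whose groups did not overlap in the mesenchymal H19DMD comparison. Its 3 controls were at 72.4, 99.0 and 81.6 FPKM and its 4 mutants at 111, 102, 109.7 and 133 FPKM, so that the lowest mutant was just above the highest control. The log2 difference was 0.44 ± 0.17 (SE; adjusted p = 0.927), the two-sided exact permutation p was 0.0286, the smallest that 4 against 3 libraries allow, and 5.39% of all genes had groups that did not overlap. Nnat was at 38.2, 20.7 and 21.5 FPKM in controls and at 25.0, 14.9, 6.46 and 9.57 FPKM in mutants. Of the mutants, 3 were below all controls and 1 was within their range, and the log2 difference was -1.0 ± 0.45 (SE; adjusted p = 0.927). The summed endocrine markers, of cells in which Nnat is abundant, were at 54.2 to 229 FPKM in these controls and at 35.0 to 124 FPKM in these mutants, with 6 of 7 tested at a negative log2 difference, and those of the ductal markers did not overlap, at 34.9 to 80.8 FPKM in controls and 14.7 to 33.8 FPKM in mutants, with 3 of 4 tested negative. Their part in the Nnat and Peg10 values was not tested. Mest was at 528, 732 and 452 FPKM in controls and at 778, 748, 799 and 607 FPKM in mutants, a log2 difference of 0.38 ± 0.22 (SE; adjusted p = 0.927), with 1 mutant inside the controls' range and values of 0.23 without control replicate 3 and 0.58 without control replicate 2. Plagl1 differed by 0.28 ± 0.20 (log2, SE), and by 0.15 to 0.36 when each library was left out in turn. Grb10, Gnas, Slc38a4, Sgce and Impact differed by -0.13 to 0.12 on the log2 scale. Their 95% intervals reached from -0.58 for Gnas to 0.61 for Impact. The value of Gnas was -0.28 to -0.045 when each library was left out in turn.

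Grb10, the growth inhibitor, was among the members closest between genotypes. Its mesenchymal controls were at 210.4, 245 and 206 FPKM and its mesenchymal mutants at 234, 271, 208 and 246 FPKM, overlapping over most of their range, with a log2 difference of 0.12 ± 0.16 (SE) and a 95% interval of -0.26 to 0.49. With each library left out in turn, the difference of Grb10 ran from 0.057 to 0.20. Of its receptor signalling partners none of 16 tested was called in this comparison. Of 28 imprinted genes at other domains, H19, whose control region is targeted, was called, and it fell. No gene passed among the neighbours, the Gs and cAMP, sarcoglycan and dystrophin, amino acid, Plag or signal peptidase lists.

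In non-mesenchymal cells of the H19DMD model, Peg10 was at 58.0, 66.4 and 65.8 FPKM in controls and at 51.5, 33.8, 33.1 and 30.0 FPKM in mutants. All 4 mutants were below all controls, 3 of them by a wide margin. The ratio of means was 0.585, and the log2 difference was -0.79 ± 0.21 (SE; 95% interval -1.28 to -0.29). This did not pass (unadjusted limma p = 0.00671, adjusted p = 0.892), the exact permutation p was 0.0571, and 5.68% of all genes had groups that did not overlap. Without mutant replicate 1, the highest of the mutants, the adjusted p was 0.223, the lowest of the range of 0.223 to 0.972 over its alternatives. The summed level of the endocrine markers was 19940 to 30030 FPKM in these controls and 11290 to 20530 FPKM in the mutants, with 9 of 10 markers at a negative log2 difference. That of the erythroid markers was 123 to 437 FPKM in controls and 152 to 1706 FPKM in mutants, with all 6 at a positive difference. The acinar sums overlapped, at 42910 to 110800 and 49880 to 70620 FPKM, with all 8 acinar markers tested at a negative difference. The part of these cell types in the Peg10 values was not tested.

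The other members had overlapping groups in these cells. Nnat was at 18.4, 26.8 and 41.8 FPKM in controls and at 46.9, 41.7, 33.2 and 42.6 FPKM in mutants, a log2 difference of 0.55 ± 0.28 (SE; adjusted p = 0.894). Nnat is abundant in islet beta cells, and the endocrine marker sum was lower in most of these mutants, as given for Peg10. The part of endocrine cells in the Nnat values was not tested. Plagl1 differed by 0.47 ± 0.42, Sgce by 0.42 ± 0.23, Mest by 0.41 ± 0.42 and Slc38a4 by 0.34 ± 0.23 (log2, SE). These values rest on single libraries in part: without control replicate 1 they were 0.28 for Nnat, 0.24 for Sgce, 0.016 for Mest and 0.13 for Slc38a4, and over all libraries left out in turn they reached 0.85, 0.58, 0.81 and 0.49. Plagl1 ran from 0.28, without mutant replicate 4, to 0.83, without mutant replicate 1. Gnas differed by -0.15 ± 0.14, Impact by -0.09 ± 0.24 and Grb10 by 0.07 ± 0.19 (log2, SE). Intervals were widest for Plagl1, -0.52 to 1.45, and Mest, -0.59 to 1.41, whose levels in these cells are low and variable. The mesenchymal marker sums were 158 to 195 FPKM in controls and 149 to 253 FPKM in mutants, with 5 of 6 tested at a positive difference. The ductal sums were 824 to 1298 and 902 to 1527 FPKM, with all 6 markers positive, and the part of these markers in the members' values was not tested.

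In non-mesenchymal cells of the Igf2 model, Gnas was at 969, 947, 958 and 981 FPKM in the 4 controls and at 699, 768 and 807 FPKM in the 3 mutants. All mutants were below all controls, which lay within a narrow range. The ratio of means was 0.786, and the log2 difference was -0.35 ± 0.13 (SE; 95% interval -0.66 to -0.04; limma adjusted p = 0.919). The exact permutation p was 0.0286, the smallest possible here, and 6.02% of all genes had groups that did not overlap. Nnat was at 66.7, 96.9, 52.7 and 61.4 FPKM in controls and at 84.8, 191 and 118 FPKM in mutants. The groups overlapped, since the lowest mutant was below the highest control, and the log2 difference was 0.87 ± 0.32 (SE; adjusted p = 0.919; exact permutation p = 0.0857).

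Cell type markers differed between these groups too. The summed acinar markers were at 30870 to 44950 FPKM in controls and at 89670 to 103700 FPKM in mutants, with 8 of the 9 acinar markers tested higher in every mutant than in every control, although none passed an adjusted p of 0.05. The endocrine sums were 6436 to 12840 FPKM in controls and 9820 to 20490 FPKM in mutants, and these overlapped, with 9 of 10 markers at a positive log2 difference. The ductal sums did not overlap, at 950.4 to 1300 FPKM in controls and 779.9 to 948 FPKM in mutants, with 5 of 6 markers at a negative log2 difference. All 6 leukocyte markers were at a positive and all 6 erythroid and all 6 neural and glial markers at a negative difference, with overlapping sums. What part such differences have in the Gnas and Nnat values was not tested. The remaining members lay closer to 0: Impact 0.30 ± 0.19, Mest -0.27 ± 0.35, Peg10 0.26 ± 0.31, Slc38a4 -0.23 ± 0.18, Plagl1 0.14 ± 0.38, Sgce -0.08 ± 0.42 and Grb10 -0.06 ± 0.20 (log2 difference, SE). Without control replicate 2 the value of Peg10 was 0.037, and without mutant replicate 2 that of Nnat was 0.56. None of the 7 had groups that did not overlap. No gene of the pathway, neighbour or imprinted lists was called in non-mesenchymal cells of either model.

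**Figure D4:**
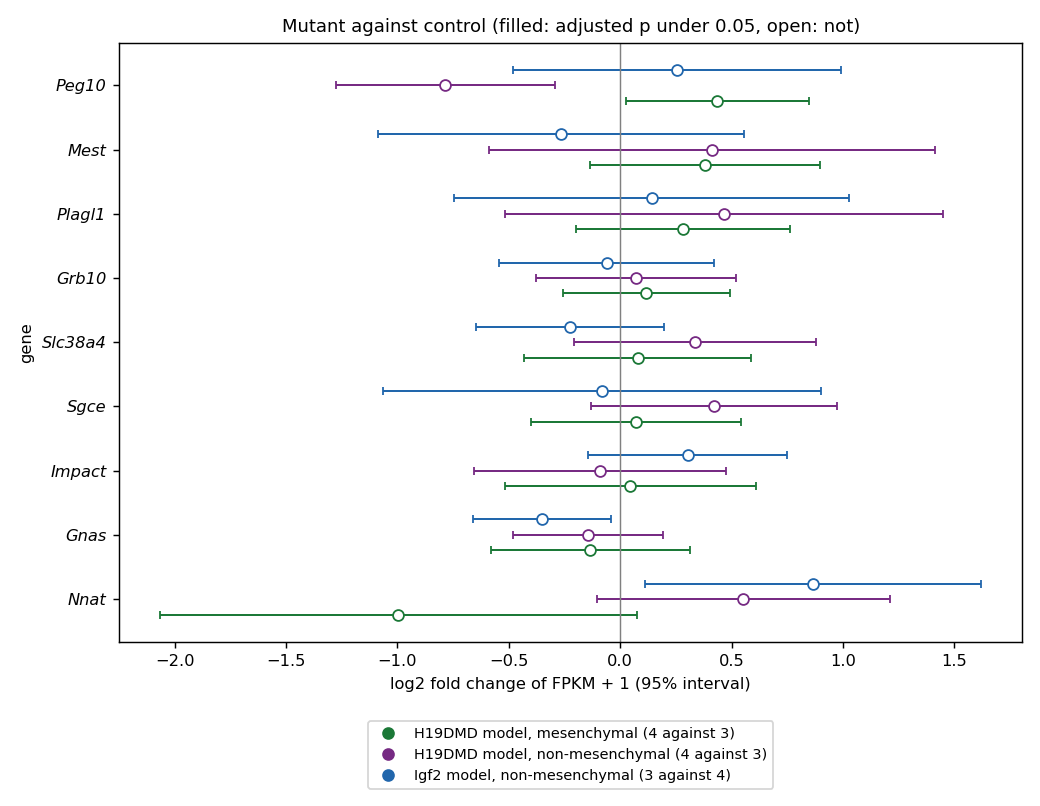
Log2 difference between mutants and controls (x axis, FPKM + 1, with 95% intervals) for each of the 9 genes (y axis), in mesenchymal (green) and non-mesenchymal cells (purple) of the H19DMD model and in non-mesenchymal cells of the Igf2 model (blue). All symbols are open, since none passed an adjusted p of 0.05, and Peg10 lies above 0 at 0.44 in mesenchymal and below 0 at -0.79 in non-mesenchymal cells of the H19DMD model.

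Whether H19DMD mutants differed from controls to a different extent in the 2 fractions was tested by the interaction of genotype and fraction. None of the 9 genes was called, and 0.0117% of 17105 genes were. The 2 genes with an unadjusted p under 0.05 were Peg10 and Nnat, where 6.35% of all genes had one. For Peg10 the mutant difference was 1.22 ± 0.27 higher in mesenchymal cells (log2, SE; 95% interval 0.64 to 1.80; limma adjusted p = 0.448). For Nnat it was -1.55 ± 0.56 (95% interval -2.76 to -0.33; limma adjusted p = 0.755). The median over all genes was -0.11, and it was -0.0048 with median-ratio scaling. Grb10, Gnas, Impact and Mest had interactions of -0.03 to 0.14, and Plagl1, Slc38a4 and Sgce of -0.35 to -0.18 on the log2 scale, none of them with an unadjusted p under 0.05. With each library left out in turn, Plagl1 ran from -0.55 to -0.00036, Slc38a4 from -0.41 to -0.046 and Sgce from -0.51 to -0.17.

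The adjacent genes Peg10 and Sgce, which are expressed from the same parental allele in many tissues, did not keep a fixed ratio. Peg10 divided by Sgce was 1.12, 1.90 and 1.73 in mesenchymal controls and 1.60, 1.75, 2.42 and 2.32 in mesenchymal mutants. In the non-mesenchymal fraction it was 7.47, 5.07 and 6.2 in controls and 2.75, 2.85, 2.34 and 2.38 in mutants. The 3 non-mesenchymal controls of this model were thus above all other libraries, those of the Igf2 model included, whose 4 controls were at 4.97, 1.33, 1.31 and 1.24 and whose 3 mutants were at 1.58, 3.33 and 2.30. Values of the 2 models come from separate tables, so no level was tested between them. The ratio was chosen after the values of both genes were seen and was given no test.

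**Figure D5:**
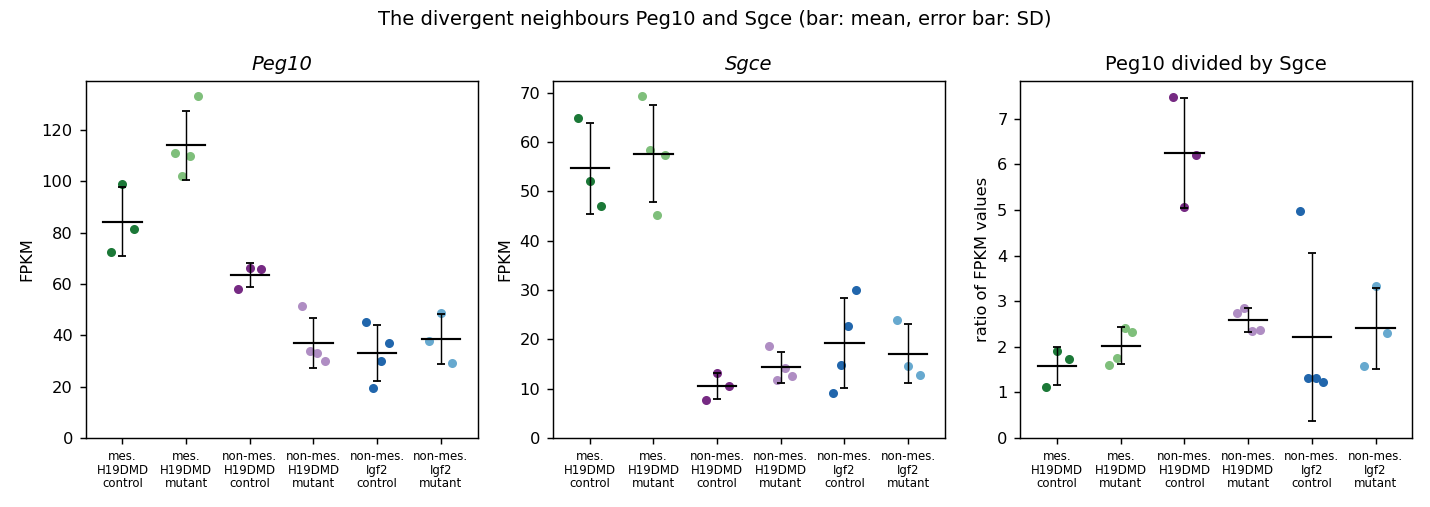
Level of Peg10 and of Sgce in FPKM and the ratio of Peg10 to Sgce in each library (y axes, linear) of the 6 groups (x axis); points are libraries, bars means and error bars SDs. The ratio is 5.07 to 7.47 in the 3 non-mesenchymal H19DMD controls and at or below 4.97 in every other library.

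The likeness of other genes to each member was described over the 14 libraries of the H19DMD model, among 8591 genes, by Pearson's r of log2(FPKM + 1). The libraries fall into 2 fractions, which can raise r, so r after group means were removed is given second, and no p is given. The genes most like Plagl1 were Flrt2 (r = 0.996 and 0.868), Igdcc4 and Pcolce, and 478 genes had an r over 0.95 with it. Most like Mest were Aoc3 (r = 0.993 and 0.757), Nid1 and Ptn, with 446 such genes, and most like Sgce were Creb5 (r = 0.985 and 0.655), S100a6 and Loxl1, with 246. Those most like Grb10 were Rbfox2 (r = 0.987 and 0.871), Amotl1 and Rbms2, with 211. Fewer genes followed other members: 2 for Slc38a4, led by Dusp6 (r = 0.978 and 0.909), and 1 for Nnat, with Mcee (r = 0.977 and 0.942). None passed that level for Impact, for which Csnk1a1 was highest (r = 0.924 and 0.946).

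Between members, Plagl1 and Mest had an r of 0.986 over the 14 libraries and Plagl1 and Grb10 one of 0.980. After the mean of each group was removed, r was 0.493 for Plagl1 and Mest and 0.845 for Plagl1 and Grb10. Peg10 and Sgce had an r of 0.775, and 0.416 after group means were removed. Slc38a4 was negatively related to all members except Nnat, from -0.835 with Impact to -0.699 with Grb10. After group means were removed its r turned positive with Mest (0.682), Grb10 (0.554), Plagl1 (0.425) and Sgce (0.298). These correlations describe 14 libraries that share their fractions and genotypes.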

How the data were processed

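The deposited values are FPKM per gene, per the file headers, in 1 table for each model; TopHat2 2.0.8, Cufflinks 2.2.1 and GRCm38 are named in the submitters' processing notes, and use of strand is not given in the sources used here. Per the labels' protocols, 2 ng of total RNA was amplified before library preparation and sequenced as single reads of 50 bp. Columns were matched to samples by library names; 8 columns were not used. Of the table IDs, 36341 are in GENCODE M21, the source of coordinates. Differences were tested within a table with limma 3.58.1 (R 4.3.3, variance trend, two-sided) on log2(FPKM + 1), for genes averaging 1 FPKM or more in a comparison's libraries, with Benjamini-Hochberg adjustment over all genes tested and a threshold of 0.05; a log2 value on this scale understates changes of low genes. Single genes also had two-sided exact permutation tests. The members and lists were chosen with earlier results of these data known. All 9 members are named; of other lists at most 4 genes per comparison, those past the threshold with the largest change; for likeness, the 3 genes with the highest r among those averaging 5 FPKM or more (for Gnas and Peg10 not reported here). The code was tested on simulated data. Alternatives were pseudocounts of 0.1 and 5, no filter or one of 5 FPKM, median-ratio scaling, no variance trend, 1 fit over all groups, the replicate block, leaving out each library and, added after seeing the data, transcripts of at least 200 nucleotides. Replicate libraries had r of 0.722 to 0.799, and none was a duplicate.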

Additional observations from a re-analysis of the deposited data

Results flagged for a closer look

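Peg10 was picked out because H19DMD mutants differed from controls in opposite directions in the fractions. Its mesenchymal mutants were all above the mesenchymal controls (0.44 on the log2 scale) and its non-mesenchymal mutants all below theirs (-0.79). The difference between these effects was 1.22 ± 0.27 (log2, SE; limma interaction, unadjusted p = 0.000602), which did not pass adjustment over all genes (adjusted p = 0.448). The adjusted p ran from 0.0874, without non-mesenchymal mutant replicate 1, to 0.817 over 22 alternatives. Non-mesenchymal controls of the H19DMD model had Peg10 at 58.0, 66.4 and 65.8 FPKM. Those of the Igf2 model had Peg10 at 45.3, 19.7, 29.9 and 37.1 FPKM. Values of the models come from separate tables, so these levels were not tested against each other. No library stood apart from its group by Dixon's criterion in 27 combinations of a member and a group of 4 libraries, where chance flags about 1 in 20. With 4 libraries the criterion can miss a library that stands apart, and groups of 3 libraries were not tested. Among the non-mesenchymal H19DMD mutants, Peg10 was at 51.5 FPKM in replicate 1 and at 30.0 to 33.8 FPKM in the others.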

How the results depend on the processing

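The count of members called was 4 to 6 over 15 alternatives for control fractions, 8 to 9 over 17 for mutant fractions, and 0 in all alternatives for the mutant comparisons and the interaction. Of the single-gene values, 860 kept direction and call, 6 gained a call (Gnas and Slc38a4 in control fractions, Impact in mutant fractions) and 43 changed sign, none of them called. With the replicate block, sign changes were Plagl1 to -0.029 and Sgce to 0.17 in the Igf2 model, and Impact to -0.092 in mesenchymal and 0.090 in non-mesenchymal cells of the H19DMD model. The interaction of Mest became 0.038 with a pseudocount of 5 and 0.10 with median-ratio scaling. Leaving out each library in turn gave interactions of -0.13 to 0.10 for Gnas, -0.063 to 0.18 for Grb10, -0.044 to 0.25 for Impact and -0.43 to 0.37 for Mest. In non-mesenchymal cells it gave -0.066 to 0.18 for Grb10 and -0.19 to 0.090 for Impact in the H19DMD model, and -0.16 to 0.14 for Grb10, -0.50 to 0.023 for Mest, -0.23 to 0.53 for Plagl1 and -0.37 to 0.17 for Sgce in the Igf2 model. In mesenchymal H19DMD cells it gave -0.092 to 0.16 for Impact, -0.029 to 0.20 for Sgce and -0.060 to 0.21 for Slc38a4, and in control fractions -0.37 to 0.20 for Nnat. The cause was not tested. Over all genes, each mutant comparison called 11 genes; counts were 13 to 37 when 1 library was left out and 0, 1 and 0 (Igf2 model, mesenchymal and non-mesenchymal H19DMD cells) when only transcripts of at least 200 nucleotides were kept. The interaction called 2 genes, and 0 to 9 over its alternatives. With a mean of at least 5 FPKM the fraction comparisons called 2448 (main 3785) and 3148 (main 4802) genes, since fewer were tested. Median-ratio scaling moved the median over all genes in control fractions from 0.08 to -0.04. Mutant and control libraries with the same replicate number deviated together little, with r of -0.051 to 0.033. Between fractions, r of such libraries was 0.017 to 0.067 in controls and 0.007 to 0.042 in mutants, always positive. Fraction libraries with other numbers had r of -0.043 to 0.023 in controls and -0.051 to 0.031 in mutants. These small values do not settle whether the numbers pair the fractions of a mouse. The block changed no member's call. Over all genes it gave 2, 7 and 5 calls in the mutant comparisons, 2660 in control fractions and 4141 in mutant fractions. FPKM without counts sets no counting limit on low members such as Impact.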
